A study of Homo sapiens with 6 samples.

Results

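The genes described here are 50 genes of the endoplasmic reticulum (ER) that fold, translocate and export secretory proteins, named as a list together with the unfolded protein response factor XBP1. They were measured in LS174T cells, a human colon adenocarcinoma line of goblet-like, mucin-producing character, after 48 h in CompE at 250 nM (3 cultures, 3 arrays) and after 48 h in the vehicle DMSO (3 cultures, 3 arrays). Both groups are the same cell line in the same medium with serum, so the results describe 1 line, and the labels call the 3 cultures of a group a triplicate. The labels give only the abbreviation CompE, which usually stands for Compound E, a blocker of gamma-secretase and thereby of Notch receptor cleavage. RNA was hybridised to Affymetrix Human U133 Plus 2.0 arrays, on which a gene is read by 1 or more probe sets. The members were chosen by gene symbol, and each gene was represented by its brightest probe set, by mean log2 intensity over the 6 arrays. Of the 50 listed genes, 46 had a probe set assigned to that gene alone, and all 46 were bright enough to be tested among the 14308 genes of the array. PDIA5 and SYVN1 share their probe set with a microRNA gene in the platform annotation and were not analysed here, and neither were SEC61G and KDELR2. The question was whether cells in CompE enlarge the machinery through which secreted proteins pass, since loss of Notch signalling commits intestinal progenitors to secretory fates.

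A secreted protein is recognised as it leaves the ribosome by the signal recognition particle, threaded through the SEC61 channel, freed of its signal peptide by signal peptidase, folded by chaperones and disulfide isomerases, and loaded into COPII-coated vesicles that leave the ER. Proteins that fail to fold are sent back to the cytosol for degradation, and resident chaperones that escape are returned in COPI-coated vesicles by the KDEL receptors. When folding falls behind demand, the unfolded protein response, through XBP1, ATF6 and ATF4, raises many of these genes at once. In goblet and Paneth cells of the intestine this machinery is abundant, and XBP1 is known to be needed for their secretory capacity in mice.

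Many of these genes carry ER stress response elements in their promoters, and the sites found are shown because they are the known binding elements of its factors. RefSeq promoter windows (GRCh38.p14, 250 bases before to 50 bases after each transcription start) were found for 44 of the 50 genes, and PDIA3, DERL1, DERL3, SPCS1, SEC24D and KDELR2 had none. The ER stress response element (ERSE, CCAAT and CCACG with 9 bases of any kind between them), the variant ERSE-II (ATTGG and CCACG with 1 base between them) and the XBP1 and ATF6 site called UPRE (TGACGTGG) were searched on both strands with no mismatch. An ERSE or ERSE-II lay in 12 of the 58 windows of these genes (20.7%, 10 genes), against 46 of all 35116 windows (0.131%). A UPRE lay in 7 of the 58 windows (12.1%, 7 genes), against 0.729% of all windows. All windows include those of these genes, and a CANX site is counted in more than 1 window. As these are the known elements of this pathway, the shares are a description and no test. Several stress-induced members, MANF, DNAJB9, DNAJC3 and EDEM1 among them, had no exact match in these windows. A match describes these letters only. Matches upstream of the start are printed on the strand of the gene, 5′ to 3′, with 10 flanking bases and the element in capitals, and the word reversed marks an element that reads on the opposite strand. Of the UPRE matches, those of HYOU1, SSR3 and SSR4 are shown. In HYOU1 a UPRE and an ERSE-II overlap.

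XBP1, ERSE, chr22:28800593-28800631, minus strand: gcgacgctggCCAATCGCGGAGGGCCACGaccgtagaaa
HSPA5, ERSE, chr9:125241381-125241419, minus strand: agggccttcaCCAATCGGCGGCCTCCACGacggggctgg
HSP90B1, ERSE, chr12:103930206-103930244, plus strand: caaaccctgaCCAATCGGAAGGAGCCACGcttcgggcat
HSP90B1, ERSE reversed, chr12:103930311-103930349, plus strand: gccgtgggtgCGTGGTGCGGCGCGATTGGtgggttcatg
CALR, ERSE reversed, chr19:12938374-12938412, plus strand: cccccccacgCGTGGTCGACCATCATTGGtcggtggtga
CANX, ERSE, chr5:179698768-179698806, plus strand: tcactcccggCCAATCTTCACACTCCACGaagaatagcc
PDIA6, ERSE, chr2:10812843-10812881, minus strand: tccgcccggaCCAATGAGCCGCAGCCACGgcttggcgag
CRELD2, ERSE reversed, chr22:49918544-49918582, plus strand: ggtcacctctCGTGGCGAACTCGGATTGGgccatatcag
HYOU1, ERSE-II reversed, chr11:119057370-119057400, minus strand: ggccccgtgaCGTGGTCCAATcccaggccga
HYOU1, ERSE-II reversed, chr11:119057264-119057294, minus strand: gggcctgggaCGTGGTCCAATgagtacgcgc
SDF2L1, ERSE-II reversed, chr22:21642104-21642134, plus strand: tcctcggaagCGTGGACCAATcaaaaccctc
HERPUD1, ERSE-II, chr16:56932015-56932045, plus strand: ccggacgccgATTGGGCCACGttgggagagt
HYOU1, UPRE, chr11:119057376-119057403, minus strand: gctggccccgTGACGTGGtccaatccca
SSR4, UPRE reversed, chrX:153794529-153794556, plus strand: cagggaggggCCACGTCAgtgctgccag
SSR3, UPRE reversed, chr3:156554149-156554176, minus strand: ctgataacagCCACGTCAgcaaggaaac

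Across the 6 arrays the medians of the deposited intensities lay between 36.9 and 38.6, and Pearson's r between same-group arrays was 0.987 to 0.988 across the probe sets past the filter, as a description. All 14 of 14 colon epithelial and goblet markers were above the level of the Bacillus control probe sets (an intensity of 45.7) on all 6 arrays. The summed intensity of those 14 was 47667 to 49755 in CompE and 45328 to 48325 in DMSO. Among markers of other cells, 1 of 8 fibroblast, 1 of 6 leukocyte, 1 of 6 endothelial and 1 of 6 plasma cell genes measured (COL1A1, LYZ, PECAM1 and SDC1) were above that level on all arrays. The sum of the leukocyte list, of which LYZ is the 1 gene above that level throughout, did not overlap between the groups, at 1267 to 1521 in CompE and 1611 to 1923 in DMSO, and the other 3 sums overlapped. Whether the signal of these genes comes from other cells or from LS174T cells themselves was not tested. For ACTB, the 3′ to 5′ intensity ratio, which tracks RNA integrity and amplification, was 1.49 to 1.53 in CompE and 1.42 to 1.46 in DMSO, whereas that of GAPDH overlapped, at 0.918 to 0.970 in CompE and 0.958 to 0.979 in DMSO. The hybridisation controls, bacterial and phage transcripts spiked in by the standard protocol, had mean log2 intensities of 11.69 to 11.83 in CompE and 11.61 to 11.63 in DMSO. The part of these differences in the results below was not tested.

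Among the measured genes of the list, none rose in the main fit and 1 fell. In limma's fit over all 14308 genes, with Benjamini-Hochberg adjusted p under 0.05 as the threshold, 0 of the 46 rose, against 4.56% of all genes. Whether 0 of 46 differs from that share was not tested. HSPA5 was the 1 gene of 46 that fell (2.17%), against 2.57% of all genes, and a share so near the background is not a result about the set. At an unadjusted p under 0.05 there were 3 genes higher in CompE (6.52%; 15% of all genes) and 5 lower (10.9%; 9.55% of all genes). The median log2 difference of the 46 was -0.03, beside 0.02 for all genes tested, and 28 of the 46 values (60.9%) lay below 0, against 45.1% of all genes.

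The differences were small, and their confidence intervals bound them. Differences ran from -0.25 for SDF2L1 to 0.19 for SSR4 on the log2 scale, that is, from 1.19-fold lower to 1.14-fold higher. On their brightest probe sets, none of the 46 differed by 1.2-fold or more, whereas 21.5% of all genes tested did, and so did 15.8% of the 10843 genes left by a stricter intensity filter that keeps all 46. Except for DERL3, the 46 were bright, with a mean log2 intensity of at least 8.84 (main filter 4.61). A dimmer probe set passed 1.2-fold for P4HB (-0.27), SEC23A (-0.27), SSR3 (-0.31), KDELR3 (-0.36) and DERL3 (-0.78), all lower. The same held for SEL1L (0.29) and TMED10 (0.33), both higher. Of these dimmer probe sets, those of SEL1L, TMED10 and DERL3 lay below the Bacillus control level. The groups overlapped on those of SEL1L, TMED10 and KDELR3. The 95% confidence interval of the difference lay inside a 1.3-fold change in either direction for 43 of 46 genes, and inside 1.5-fold for all 46. Of all genes tested, 52.9% had an interval inside 1.3-fold and 75.1% inside 1.5-fold. The upper limit of the interval was under 1.3-fold for 45 of the 46, and the exception was PDIA3 with an upper limit of 1.44-fold. The median standard error was 0.06 for these genes and 0.08 for all genes tested.

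**Figure D1:**
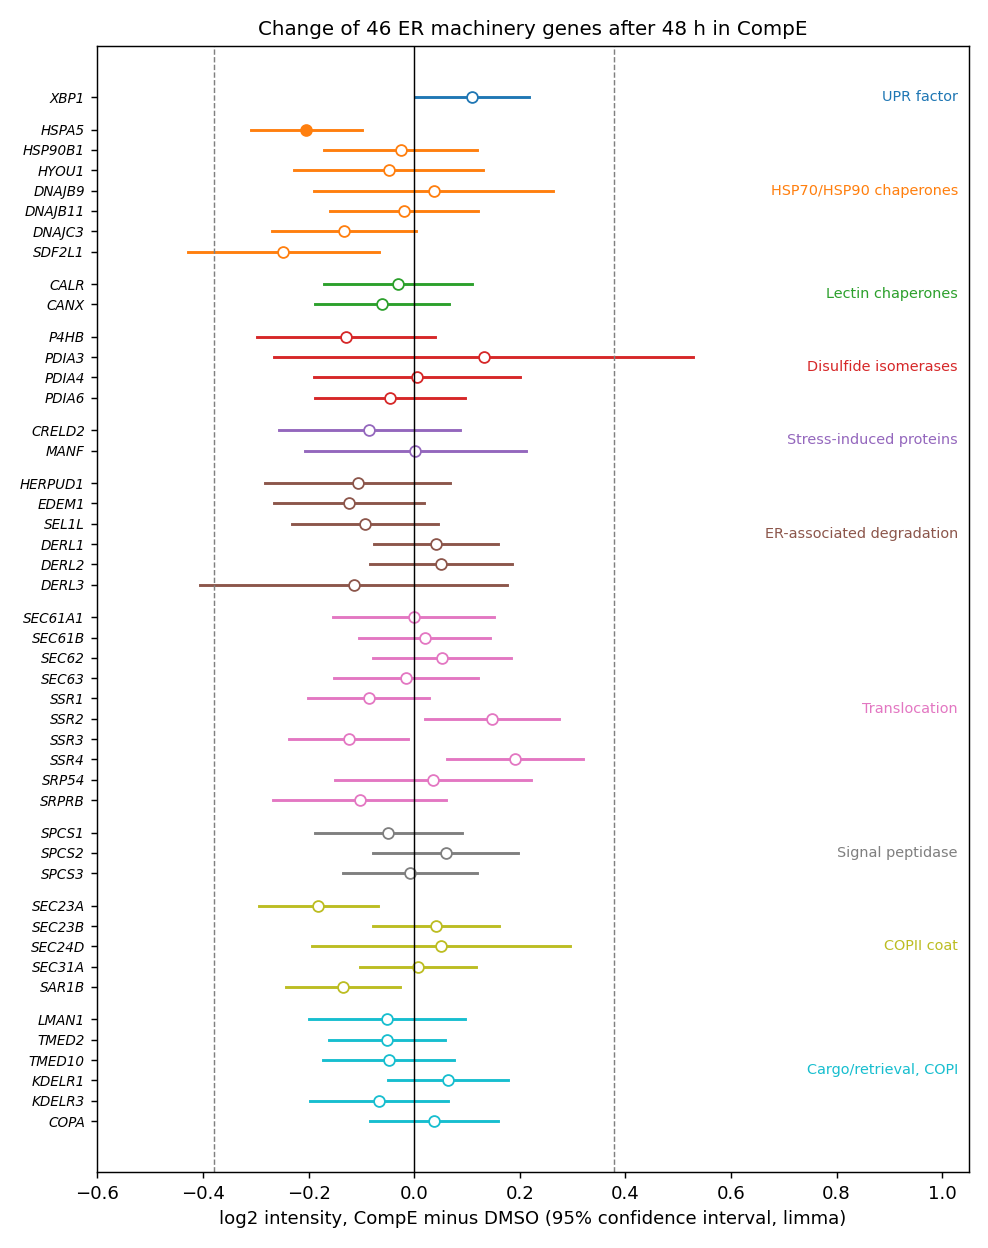
Log2 intensity difference of the 46 measured genes, CompE minus DMSO (x axis), with limma's 95% confidence interval (bars), ordered by role from the top; the filled point is the gene with an adjusted p under 0.05 (HSPA5) and dashed lines mark a 1.3-fold change. Of the 46 intervals, 43 lie inside the dashed lines, against 52.9% of the intervals of all genes tested, which are not drawn.

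XBP1 encodes the transcription factor that IRE1 activates by splicing its mRNA, and it is itself a target of the unfolded protein response. Its intensity was 2547, 2585 and 2535 in CompE, against 2370, 2400 and 2336 in DMSO. All 3 CompE arrays were above all 3 DMSO arrays, yet the difference was 1.08-fold (log2 difference 0.11 ± 0.04 SE, adjusted p = 0.198 in the limma fit). The probe set reads the total mRNA, so that spliced and unspliced forms are not told apart. Its other probe set was too dim to be tested.

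HSPA5 encodes BiP, the abundant HSP70 chaperone of the ER lumen and the usual readout of ER stress. Its intensity was 4057, 4006 and 4024 in CompE, against 4652, 4609 and 4665 in DMSO. The groups did not overlap and each spanned a narrow range. The fall was 1.15-fold (log2 difference -0.20 ± 0.04 SE, 95% confidence interval -0.31 to -0.10, adjusted p = 0.0476 in the limma fit). The call lay just inside the threshold and ended whichever of the 6 arrays was left out (adjusted p = 0.0958 to 0.143), with log2 differences of -0.21 to -0.20. A second, dimmer probe set of HSPA5 gave 116, 122 and 113 in CompE, against 134, 111 and 122 in DMSO, where the groups overlapped (log2 difference -0.06). As the called gene of the set, its full upstream stretch is shown, 250 bases at chr9:125241344-125241593 on the minus strand (GRCh38.p14), with the exact ERSE in capitals. The stretch holds 4 CCAAT boxes counted on both strands.

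HSPA5 upstream: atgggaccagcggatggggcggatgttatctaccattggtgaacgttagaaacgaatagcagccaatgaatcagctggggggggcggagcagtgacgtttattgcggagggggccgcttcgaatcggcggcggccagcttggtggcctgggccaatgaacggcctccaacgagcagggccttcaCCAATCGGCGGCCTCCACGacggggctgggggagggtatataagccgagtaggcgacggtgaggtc

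The other chaperones of the HSP70 and HSP90 classes and their partners did not pass. SDF2L1, a stress-induced partner of BiP complexes, had intensities of 447, 389 and 430 in CompE, against 528, 495 and 479 in DMSO. The groups did not overlap, and the difference of -0.25 ± 0.07 SE was the most negative of all 46 genes (limma adjusted p = 0.108). HSP90B1, which encodes GRP94, the HSP90 of the ER, had 1838, 1718 and 1696 in CompE, against 1782, 1855 and 1709 in DMSO. Its groups overlapped (log2 difference -0.03, adjusted p = 0.830 in limma). A second, dimmer probe set of HSP90B1 gave -0.16, also with overlapping groups, and 2 further probe sets that the annotation shares with another gene were not used.

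DNAJC3, which encodes the co-chaperone P58IPK, was lower in CompE on every array without passing (971, 924 and 882 in CompE, against 1038, 1003 and 1003 in DMSO; log2 difference -0.13). All 4 of its probe sets lay below 0, from -0.22 to -0.10. The J-domain co-chaperone genes DNAJB9 and DNAJB11 differed by 0.04 and -0.02, and HYOU1, the gene of a large HSP70 relative that acts as exchange factor for BiP, by -0.05. Counted together, 1 of the 7 chaperone genes fell (14.3%, against 2.57% of all genes), 0 rose (4.56% of all genes) and 6 did not pass. A count of 1 gene is not a result about the 7.

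The lectin chaperones calnexin and calreticulin, which hold newly glycosylated proteins, did not pass the test. CANX had 6293, 6343 and 6196 in CompE, against 6729, 6688 and 6244 in DMSO, a log2 difference of -0.06 ± 0.05 SE (adjusted p = 0.526 in the limma fit). CALR differed by -0.03, and its interval ran from -0.17 to 0.11. The 3 probe sets of CALR lay at -0.17, -0.08 and -0.03.

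Of the protein disulfide isomerases, which form and reshuffle disulfide bonds, 4 were measured and 0 passed. P4HB, the gene of the classical isomerase PDI, had 4511, 4918 and 4480 in CompE, against 5340, 5110 and 4764 in DMSO. The CompE value of replicate 2 lay above the lowest DMSO value, and the log2 difference was -0.13 ± 0.07 SE (limma adjusted p = 0.309). On its 2 other probe sets, at -0.27 and -0.12, every CompE array was below every DMSO array. PDIA6 and PDIA4 differed by -0.05 and 0.01.

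PDIA3, the isomerase gene that works with the lectin chaperones, was the least precise of the set. Its brightest probe set gave 2734, 2162 and 3065 in CompE, against 2048, 2545 and 2643 in DMSO, a log2 difference of 0.13 ± 0.16 SE. Its 2 other probe sets gave -0.13 and -0.14. The direction for PDIA3 therefore depended on the probe set.

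CRELD2 and MANF encode stress-induced luminal proteins that can also be secreted, and both respond strongly to ER stress in many cells. CRELD2 had 918, 994 and 854 in CompE, against 966, 958 and 1006 in DMSO, overlapping groups with a log2 difference of -0.09 (adjusted p = 0.510 in limma). MANF differed by 0.0024 ± 0.08 SE, with an interval of -0.21 to 0.21.

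Genes of ER-associated degradation, which recognise, retrotranslocate and ubiquitinate misfolded proteins, gave 0 calls among 6 measured, and 0 of the 6 had an unadjusted p under 0.05. EDEM1, which encodes a lectin that extracts misfolded glycoproteins, had 496, 497 and 454 in CompE, against 539, 515 and 522 in DMSO. The groups did not overlap (log2 difference -0.12 ± 0.06 SE, limma adjusted p = 0.258). HERPUD1, which organises the ubiquitin ligase complex and is strongly stress-induced, differed by -0.11, and SEL1L, the adaptor of that ligase, by -0.09.

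The derlin genes DERL1 and DERL2, whose products are part of the retrotranslocation channel, differed by 0.04 and 0.05. DERL3 was the dimmest of the 46, at 59.7, 70.6 and 52.5 in CompE, against 63.0, 70.1 and 63.6 in DMSO, close to the Bacillus control level. Its groups overlapped and its interval ran from -0.41 to 0.18. SEL1L had probe sets of both signs (-0.09 to 0.29 over 4). On its second brightest probe set (mean 162 in CompE and 142 in DMSO, log2 difference 0.19), every CompE array was above every DMSO array.

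Translocation genes were split, with 5 values above and 5 below 0 among 10 measured and 0 calls. The widest contrast lay within the translocon-associated protein complex (TRAP), whose 4 subunits SSR1 to SSR4 assist the entry of some signal sequences into SEC61. SSR4 had 2583, 2653 and 2545 in CompE, against 2321, 2325 and 2171 in DMSO. The groups did not overlap, and the log2 difference of 0.19 ± 0.05 SE was the most positive of the 46 genes (limma adjusted p = 0.0897). SSR2 had 2023, 2013 and 1921 in CompE, against 1859, 1770 and 1752 in DMSO (0.15 ± 0.05 SE, limma adjusted p = 0.154).

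The other TRAP subunits had values below 0. SSR3 had 1874, 1852 and 1882 in CompE, against 2069, 2061 and 1984 in DMSO (log2 difference -0.12 ± 0.05 SE, limma adjusted p = 0.168). SSR1 had 4472, 4301 and 4451 in CompE, against 4778, 4620 and 4634 in DMSO (-0.09 ± 0.05 SE, limma adjusted p = 0.321). On their brightest probe sets, none of the 4 TRAP genes had groups that overlapped, and the signs differed between the subunits of 1 complex. Of all genes tested, 19.1% had every CompE array above every DMSO array and 13% every CompE array below. All 4 probe sets of SSR3 lay below 0, whereas those of SSR1 had both signs and SSR2 and SSR4 had 1 probe set each. The groups overlapped on all the other probe sets of SSR1 and on a dimmer one of SSR3. A difference between subunits was not tested. Both SSR3 and SSR4 carry the UPRE printed above.

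None of the genes of the channel passed. SEC61A1, the pore subunit gene, had 1361, 1359 and 1223 in CompE, against 1350, 1291 and 1302 in DMSO, a log2 difference of -0.0013 ± 0.06 SE, and the groups overlapped. SEC61B differed by 0.02 and the accessory genes SEC62 and SEC63 by 0.05 and -0.02. SRP54, the GTPase subunit of the signal recognition particle, differed by 0.04, and SRPRB, a subunit of its receptor, by -0.10. The second probe set of SEC61A1 lay at -0.18.

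Signal peptidase, which cuts the signal peptide, gave differences of -0.05 for SPCS1, 0.06 for SPCS2 and -0.01 for SPCS3. SPCS2, with the smallest p of the 3, had 3108, 3026 and 2879 in CompE, against 2971, 2770 and 2908 in DMSO (adjusted p = 0.572 in limma), and the groups overlapped.

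The COPII coat, which buds cargo vesicles from the ER, held 5 measured genes with 0 calls. SEC23A, an inner coat gene, had 1750, 1693 and 1778 in CompE, against 1968, 1968 and 1985 in DMSO. The groups did not overlap, and the log2 difference was -0.18 ± 0.05 SE (limma adjusted p = 0.0750). Its other probe set gave -0.27. SAR1B, the GTPase gene that starts coat assembly, had 1212, 1199 and 1225 in CompE, against 1315, 1325 and 1354 in DMSO (-0.13 ± 0.04 SE, limma adjusted p = 0.134). All 5 probe sets of SAR1B lay below 0, from -0.22 to -0.11. The paralogue SEC23B differed by 0.04, SEC24D, a cargo-binding coat gene, by 0.05, and SEC31A, of the outer coat, by 0.01.

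Cargo receptors and the retrieval pathway likewise had 0 calls among 6 measured, and 0 had an unadjusted p under 0.05. KDELR1, a receptor that returns resident ER proteins, had 3249, 3140 and 3252 in CompE, against 3011, 3121 and 3095 in DMSO. The groups just failed to overlap, and the log2 difference was 0.06 ± 0.05 SE (limma adjusted p = 0.461). Its other probe set lay at -0.03 with overlapping groups, so that the sign depended on the probe set. KDELR3 differed by -0.07, LMAN1, the lectin receptor gene for glycoprotein cargo, by -0.05, the p24 cargo receptor genes TMED2 and TMED10 by -0.05 each, and COPA, of the COPI coat, by 0.04.

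**Figure D2:**
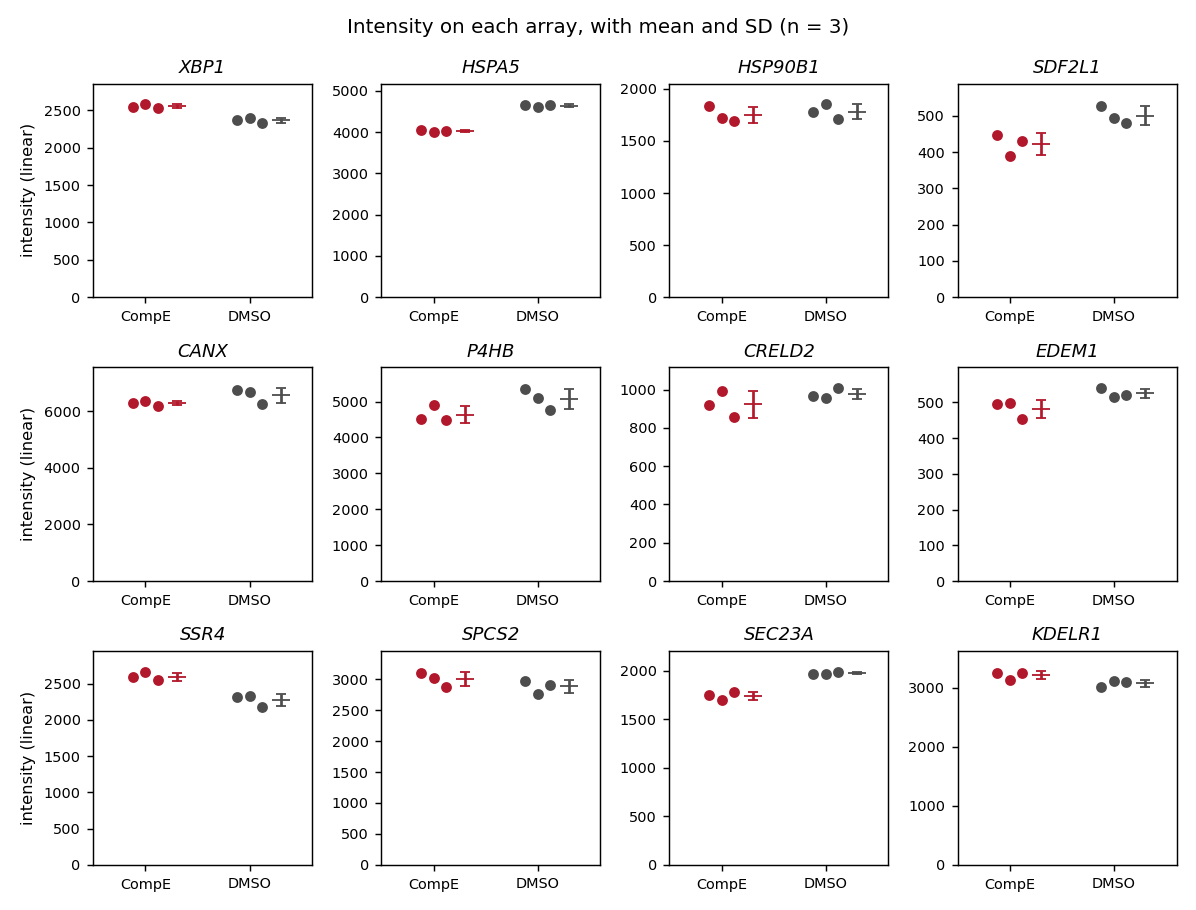
Linear intensity on each array (points) for XBP1, HSPA5, HSP90B1, SDF2L1 and the gene with the smallest p in each role, CompE left of DMSO, with the mean and SD of 3 arrays beside them and each y axis starting at 0. HSPA5 was 4006 to 4057 in CompE and 4609 to 4665 in DMSO.

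Over the 46 genes, the groups did not overlap for 13. For 4 of them (8.70%) every CompE array was above every DMSO array, against 19.1% of all genes tested, and for 9 (19.6%) every CompE array was below, against 13% of all genes. The 4 were XBP1, SSR2, SSR4 and KDELR1, and the 9 were HSPA5, SDF2L1, DNAJC3, EDEM1, SSR1, SSR3, SEC23A, SAR1B and TMED2. These counts rest on the brightest probe set of each gene. For KDELR1, HSPA5, DNAJC3, SSR1, SSR3, SAR1B and TMED2, the groups overlapped on at least 1 other probe set past the filter.

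The genes also varied between cultures of the same group. CompE replicate 3 was the lowest of the CompE arrays for 23 of 46 genes (50%; 46.4% of all genes tested) and CompE replicate 1 for 7 (15.2%; 24.5% of all genes). Within the 21 chaperone, isomerase, stress-induced and degradation genes, CompE replicate 3 was lowest for 14 and highest for 2. MANF, for example, had 1645 in CompE replicate 3, against 1833 and 2033 in CompE replicates 1 and 2, a wider gap than that between the groups. HERPUD1 had 1357 there, against 1526 and 1543. The median deviation of the 46 genes from their DMSO means was -0.03, -0.0035 and -0.07 on the log2 scale in CompE replicates 1, 2 and 3. The median difference of the 46 was -0.01 without CompE replicate 3 and -0.06 without CompE replicate 2.

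**Figure D3:**
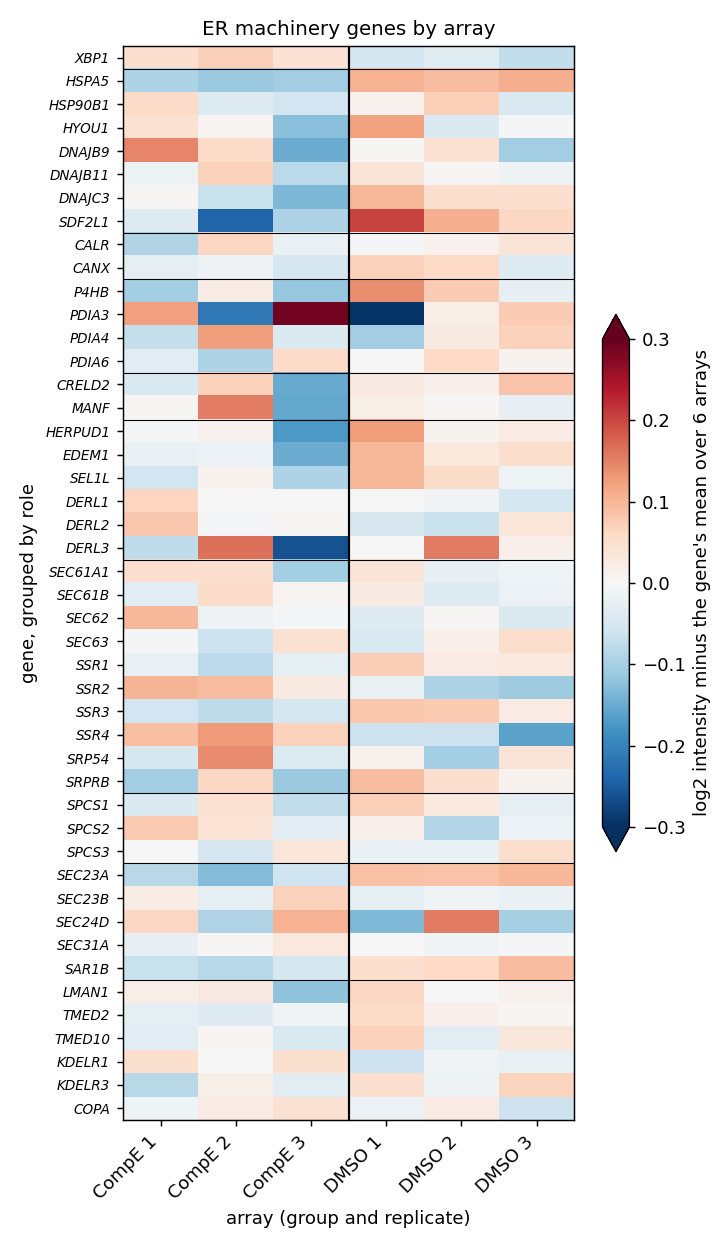
Log2 intensity of each of the 46 genes (rows, grouped by role) on each array (columns, CompE left of DMSO) minus that gene's mean over the 6 arrays; red is above and blue below the mean, and the scale ends at ± 0.3. HSPA5 is low on all 3 CompE arrays, and CompE replicate 3 is the lowest CompE array for 14 of the 21 folding and degradation genes.

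The genes with an ERSE or ERSE-II, 10 in all and all tested, had a median log2 difference of -0.05 (-0.03 for all 46). Their values ranged from -0.25 (SDF2L1) to 0.11 (XBP1). Of the 10 values, 9 lay below 0, as did 60.9% of the 46 genes they belong to and 45.1% of all genes. The 7 genes with a UPRE had a median of -0.05 and a range of -0.18 (SEC23A) to 0.19 (SSR4). These are descriptions of genes chosen for a shared pathway. HSPA5 was the 1 gene that fell among the 10 with an ERSE or ERSE-II (2.57% of all genes fell), and 0 of the 7 with a UPRE passed.

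Probe sets that were not the brightest give a second reading of the same arrays. Of 67 such probe sets past the filter, 51 had the sign of the brightest probe set of their gene, and 44 lay below 0 and 23 above. Of 32 genes with several probe sets, 14 had all of them below 0 (among them SAR1B with 5, and DNAJC3, SSR3, PDIA6 and CANX with 4 each), 6 had all of them above 0 and 12 had both signs. DERL3 had a dim second probe set at -0.78, below the Bacillus control level. Probe sets of a gene share the RNA and the array and are no replicates. The brightest probe set of 5 genes (HSP90B1, CALR, DERL3, SRPRB and SPCS3) is of the type whose probes can match other transcripts, by the suffix x of its identifier.

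**Figure D4:**
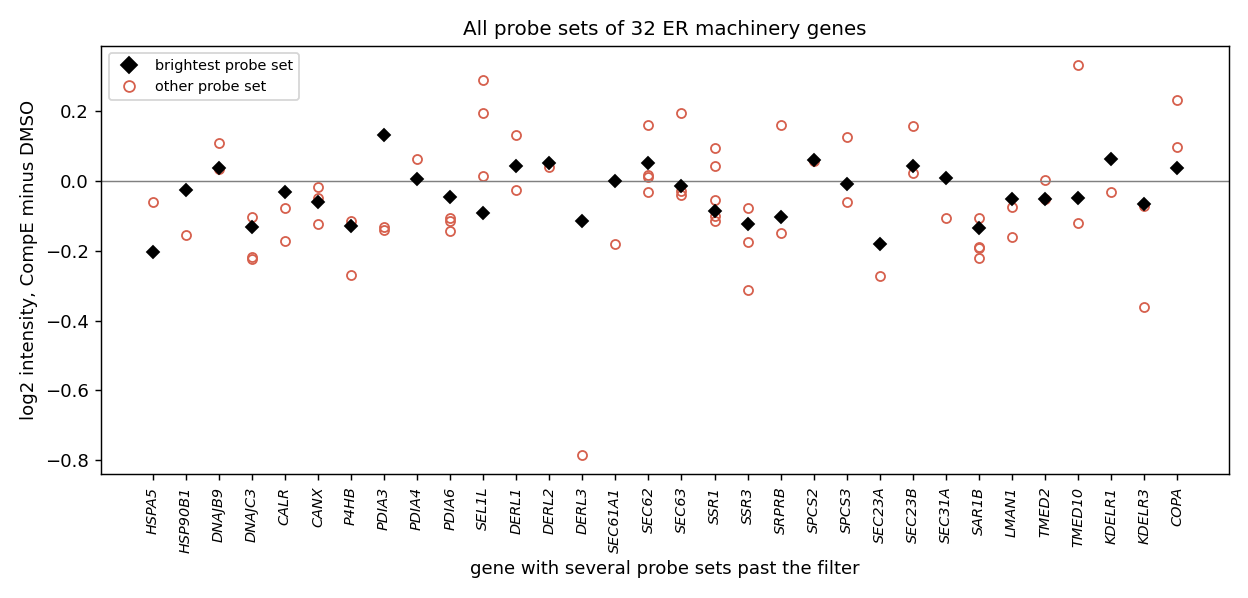
Log2 intensity difference, CompE minus DMSO (y axis), of every probe set past the filter for the 32 genes with more than 1 (x axis); diamonds are the brightest probe set of a gene and open circles the others. Of the circles, 44 lie below 0 and 23 above, and the outlying circle of DERL3 is at -0.78.

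Further genes of the same pathway, outside the list, were set beside it. Of 193 tested in 8 lists, limma's test called 5 higher and 1 lower and left 187 uncalled, with a median log2 difference of -0.02. These were 2.59% and 0.518% of the 193, against 4.56% and 2.57% of all genes. At an unadjusted p under 0.05, 12 were higher (6.22%; 15% of all genes) and 14 lower (7.25%; 9.55% of all genes). Among 25 genes of N-glycosylation, 24 of ER-associated degradation, 33 of COPII and ER exit and 23 of COPI and retrieval, 0 passed in the limma fit (0, 2, 0 and 0 higher and 2, 1, 1 and 3 lower at an unadjusted p under 0.05). Their median differences were -0.07, 0.03, -0.02 and -0.02.

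The 6 genes that passed came from 4 of the lists, and the counts are too small to be read as results about a list. Of 15 sensors and transcription factors of the unfolded protein response and of secretory adaptation, 2 rose and 0 fell. These were 13.3% and 0%, against 4.56% and 2.57% of all genes. At an unadjusted p under 0.05, 2 were higher (13.3%, against 15% of all genes) and 2 lower (13.3%, against 9.55%). The 2 genes that rose encode membrane-bound transcription factors of the CREB3 family, which are released by cleavage in the Golgi and can raise secretory genes. CREB3L4 had 292, 300 and 300 in CompE, against 185, 184 and 192 in DMSO, a 1.59-fold rise (log2 difference 0.67 ± 0.05 SE, adjusted p = 0.00224 in limma). CREB3L1 had 270, 277 and 283 in CompE, against 194, 210 and 196 in DMSO, a 1.38-fold rise (0.47 ± 0.05 SE, limma adjusted p = 0.0103). The call of CREB3L1 ended without DMSO replicate 3 (adjusted p = 0.0519 in limma), and its other probe set gave -0.05. The other genes of this list given here were named after their values were seen. DDIT3, which encodes the stress-induced factor CHOP, had 114, 173 and 124 in CompE, against 233, 234 and 211 in DMSO. Its groups did not overlap, and the log2 difference of -0.74 ± 0.16 SE missed the threshold (limma adjusted p = 0.0545). PPP1R15A, the gene of the phosphatase subunit GADD34 that ends the PERK response, differed by -0.30 with groups that did not overlap (limma adjusted p = 0.129). The sensors ERN1, ERN2 and ATF6 differed by -0.05, 0.0040 and -0.00028.

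Of 15 further isomerase and oxidase genes, 1 rose (6.67%, against 4.56% of all genes) and 0 fell (2.57% of all genes). At an unadjusted p under 0.05, 2 were higher (13.3%, against 15% of all genes) and 2 lower (13.3%, against 9.55%). AGR3, a member of the disulfide isomerase family in secretory epithelia, had 1082, 1114 and 1049 in CompE, against 839, 877 and 929 in DMSO, a 1.23-fold rise (limma adjusted p = 0.0418). Its call ended whichever array was left out (adjusted p = 0.0784 to 0.131). AGR2, its relative needed for mucin folding in mice and named after its values were seen, differed by 0.07 (limma adjusted p = 0.416). The ER oxidase genes ERO1B and ERO1A, also named after their values were seen, differed by 0.65 and -0.26 with groups that did not overlap, and both just missed the threshold (limma adjusted p = 0.0524 and 0.0512).

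Of 30 further chaperone genes, 1 rose and 1 fell, both of the FKBP family of prolyl isomerases. Each was 3.33% of the list, against 4.56% of all genes that rose and 2.57% that fell. At an unadjusted p under 0.05, 4 were higher (13.3%, against 15% of all genes) and 2 lower (6.67%, against 9.55%). FKBP7 had 181, 202 and 198 in CompE, against 109, 119 and 107 in DMSO, a 1.73-fold rise (log2 difference 0.79 ± 0.07 SE, limma adjusted p = 0.00444), and its other probe set gave 0.47. FKBP11, which is abundant in secretory tissues, had 353, 371 and 339 in CompE, against 491, 477 and 536 in DMSO, a 1.41-fold fall (-0.50 ± 0.07 SE, limma adjusted p = 0.0152). Its 2 other probe sets gave -0.41 and -0.27. The call of FKBP11 ended without DMSO replicate 1, DMSO replicate 3 or CompE replicate 1 (highest adjusted p = 0.0700).

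Of 28 further translocation genes, 1 rose (3.57%, against 4.56% of all genes) and 0 fell (2.57% of all genes). At an unadjusted p under 0.05, 2 were higher (7.14%, against 15% of all genes) and 1 lower (3.57%, against 9.55%). TRAM2, which encodes a protein beside the translocon, had 485, 502 and 497 in CompE, against 383, 373 and 403 in DMSO, a 1.28-fold rise (limma adjusted p = 0.0184). Its 2 other probe sets gave -0.42 and 0.03, and its call ended whichever array was left out (adjusted p = 0.0519 to 0.0751).

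Genes of goblet cell products, listed here as secreted cargo, were measured on the same arrays. The list includes LGALS4 and BCAS1, and whether each product passes through the ER was not examined. Of 20 cargo genes tested, 10 rose (50%; 4.56% of all genes) and 0 fell in the limma fit (12 higher and 1 lower at an unadjusted p under 0.05), with a median log2 difference of 0.44. RETNLB, a secreted goblet cell protein gene, had 664, 634 and 601 in CompE, against 148, 141 and 155 in DMSO, a rise of 4.27-fold. FCGBP, a mucus component gene, had 960, 936 and 948 in CompE, against 357, 341 and 333 in DMSO (2.76-fold), and SPINK4, a peptidase inhibitor gene, rose 2.75-fold. Limma's adjusted p was 0.000354, 0.000408 and 0.000512 for RETNLB, FCGBP and SPINK4. The cargo list was written with earlier results of these data known and is not independent evidence of its direction. The difference between cargo and machinery was not tested as such. The 20 cargo differences ran from -0.37 to 2.09 with 6 below 0, and the 46 machinery differences ran from -0.25 to 0.19. Named after its values were seen, TFF1, a trefoil peptide gene of mucous cells, had 1680, 1720 and 1515 in CompE, against 2280, 2005 and 2052 in DMSO. Its groups did not overlap, and the log2 difference of -0.37 just missed the threshold (limma adjusted p = 0.0508). Without CompE replicate 1 the count of cargo genes that rose was 5, without DMSO replicate 2 or DMSO replicate 3 it was 6, and RETNLB, FCGBP and SPINK4 passed whichever array was left out.

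**Figure D5:**
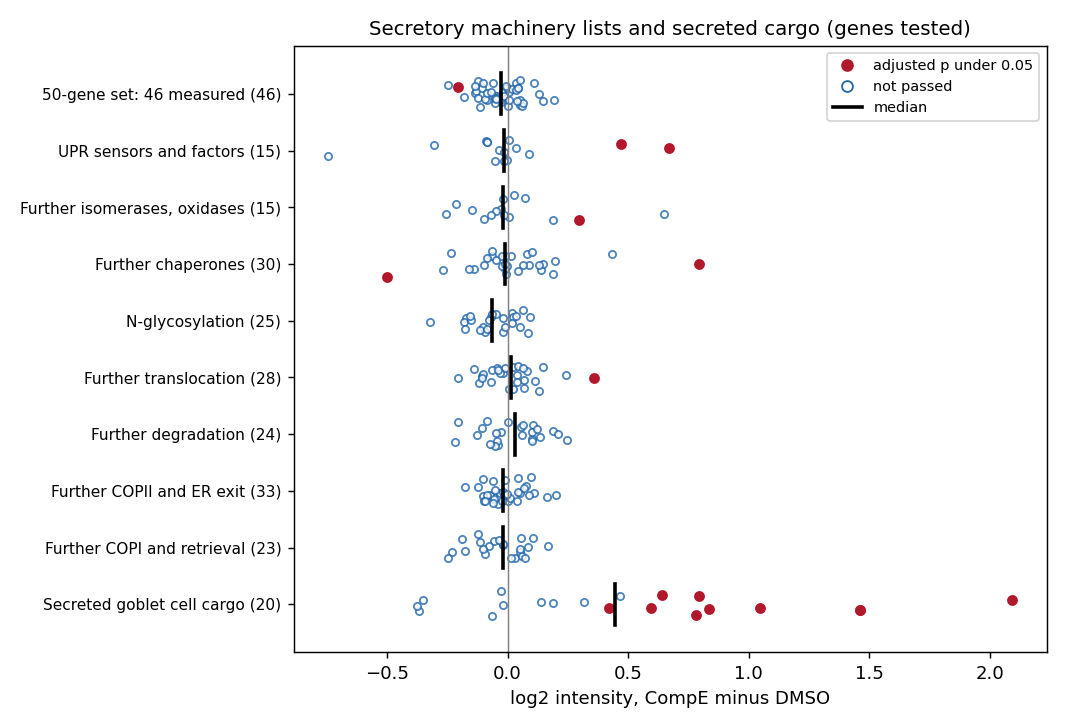
Log2 intensity difference, CompE minus DMSO (x axis), of each gene tested in the 50-gene set, in 8 further lists of the secretory machinery and in the list of secreted goblet cell cargo (rows, number of genes tested in brackets); red points passed at an adjusted p under 0.05 and black bars are medians. The median is -0.03 for the 46 genes and 0.44 for the 20 cargo genes.

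The deposited intensities were normalised between arrays, so that a change of RNA amount per cell common to all genes would not be seen, and fewer cells of a type and less RNA per cell cannot be told apart. When the arrays were scaled to the hybridisation controls instead, the median difference of all genes was -0.12, in place of 0.02. The median of the 46 genes was then -0.17, 12 of the 46 fell and 0 rose, while 10.8% of all genes fell and 2.38% rose.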

How the data were processed

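RNA of LS174T cells was measured on 6 Affymetrix U133 Plus 2.0 arrays, 3 of cells in CompE and 3 of cells in DMSO. The deposited table holds 1 intensity per probe set on a linear scale, which the authors normalised with dChip, as the design description states (per the labels, no version is given). That text also gives the authors' choice of the 10896 least variable probe sets, which was run here as an alternative because the deposited table holds all probe sets. Here they were taken as the probe sets past the filter with the lowest variance within the groups. The number of arrays limits the precision. Intensities under 1 were set to 1 and log2 transformed. Control probe sets (62), probe sets named for several genes or none, and the dimmest 40% (below an intensity of 24.4) were left out. The brightest probe set stood for its gene (annotation of 2016). The 14308 genes were compared with limma 3.58.1 (lmFit and eBayes, group as the 1 term) in R 4.3.3, with Benjamini-Hochberg adjustment over all of them, a threshold of 0.05 and 95% intervals. The fit was tested on simulated data. The members, the gene lists and the tests were chosen with earlier results of these data known. Array values were to be named for members that passed, for XBP1, HSPA5, HSP90B1 and the smallest p of each role, and for up to 3 passed genes of each other list; the array values of other members were added after their values were seen. Alternatives covered the filter, scaling, floor, probe set choice, eBayes setting, replicate block and single arrays left out.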

Additional observations from a re-analysis of the deposited data

How the results depend on the processing

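The settings differ in the genes they hold: 14308 genes and all 46 members in most, but 19775 genes with no filter, 10843 under the stricter filter, 11718 above the Bacillus controls, 6977 (32 members) with the second brightest probe set and 6858 (42 members) in the least variable set. The count of members that rose, 0, was 1 under the stricter filter that leaves out the dimmest 60% (SSR4) and 2 (SSR2 and SSR4) both among the least variable 10896 probe sets and with trend and robust eBayes; without any 1 array it was 0 to 0. The count that fell, 1, was 0 with no filter, with quantile normalisation, with median centring, with the mean of all probe sets, with the second brightest probe set and over probe sets in place of genes (an alternative chosen after seeing the data). It was 2 under the stricter filter and above the Bacillus controls, 4 with trend and robust eBayes, 9 among the least variable probe sets and 12 with hybridisation control centring, and 0 to 0 without any 1 array. The median of the set was -0.17 with hybridisation control centring. PDIA3, at 0.13, was -0.13 in the least variable set (limma adjusted p = 0.0232), where its brightest probe set is not included. The probe set used there had a limma adjusted p of 0.285 over all probe sets past the filter. The least variable set was picked by low variance within the groups, which limma's test also uses. Its p-values are therefore biased low, and its counts of calls cannot be read like those of the other settings. Among all genes, 653 rose and 368 fell. These counts were 242 and 121 with no filter, 1117 and 634 under the stricter filter, 988 and 567 above the Bacillus controls, 340 and 1552 with hybridisation control centring, 142 and 77 with the second brightest probe set, 1761 and 1159 in the least variable set, and 1402 and 852 with trend and robust eBayes. Without any 1 array they were 162 to 352 and 90 to 167. Of the further pathway genes, 5 rose and 1 fell. Those counts were 3 and 1 with no filter, 9 and 4 under the stricter filter, 7 and 3 above the Bacillus controls, 7 and 2 with quantile normalisation, 5 and 2 with median centring, 3 and 28 with hybridisation control centring, 2 and 1 with the second brightest probe set, 21 and 13 in the least variable set, 14 and 11 with trend and robust eBayes, and 7 and 3 over probe sets. Without any 1 array they were 2 to 3 and 0 to 2. Of the cargo genes, 10 rose and 0 fell. The rises were 2 with the second brightest probe set, 6 in the least variable set and 5 to 9 without any 1 array. The falls were 1 under the stricter filter, above the Bacillus controls, with quantile normalisation, with hybridisation control centring and with trend and robust eBayes, and 0 to 0 without any 1 array. Rises made up 64% of all calls, and 18% with hybridisation control centring (83.3% and 9.68% among further pathway genes). Same-numbered arrays did not deviate together (r = 0.02, -0.10 and -0.02), so the numbers were not taken to pair the cultures. With the replicate number as a block, 5 cargo genes rose, 0 of the 46 rose and 0 fell, 70 of all genes rose and 32 fell, and 2 further pathway genes rose and 0 fell. Where the cause of a change in a count is not given, the cause was not tested.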
